A study of Mus musculus with 8 samples.

Results

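Blood vessels of the uterus are described here through 43 genes of endothelial cells and of the signals that reach them, in mice with and without the forkhead transcription factor FOXA2. The genes were listed by name and cover endothelial cell markers, the receptors and ligands of the VEGF, angiopoietin and apelin families, and parts of the adrenomedullin receptor. A gene entered through the probe set that carries its symbol alone, which held for 42 of the 43 genes among 19938 genes in all. Selp was not analysed here, and each of the 42 was read by 1 probe set. Whole uteri of 8 female mice were measured on 1 microarray each, 4 per genotype. Controls were Pgr+/+ Foxa2+/+ and thus carried no Cre. Foxa2-deleted animals were PgrCre/+ Foxa2flox/flox, with the recombinase Cre driven from 1 Pgr allele, the gene of the progesterone receptor, so that recombination is directed to cells that use Pgr. All females of both genotypes had mated with a vasectomised wild type male and were taken on day 3.5 of pseudopregnancy, the day of the plug being day 0.5. No source used here gave the animals' age. The genotypes differed in Foxa2, in Cre and in the number of intact Pgr alleles together, and these cannot be told apart.

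Endothelial cells line every vessel and are held together by junction proteins such as VE-cadherin and PECAM-1. VEGF ligands act on the receptor kinases FLT1, KDR and FLT4, with the neuropilins as partners, and drive the growth and leakiness of vessels. Angiopoietins act on the receptor TIE2, the product of Tek, for which TIE1 is a partner. ANGPT1 is known to stabilise vessels, and ANGPT2 to loosen them in many settings. Apelin and APELA, a short peptide also called Elabela or Toddler, are the ligands of 1 G protein-coupled receptor, APLNR. CALCRL becomes a receptor for adrenomedullin once paired with RAMP2 or RAMP3. In the uterus before implantation, vessels of the endometrium become leaky and grow under the control of ovarian hormones.

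Promoters of 4 genes, picked by their results, are printed here, since the study removed a factor that binds DNA. They are Apela and Apln, the ligands of 1 receptor, of which Apela fell and Apln did not pass, Ramp3, the member with the largest increase, and Tie1, one of the receptors that fell. Sequences are from RefSeq on the mouse build GRCm38.p6 and hold the 250 bases before the start used in that promoter table, 5′ to 3′ on the strand of the gene. Capitals mark a match to a searched motif. Searched on both strands were the forkhead motif TGTTTAC, the ETS motif CCGGAAG and the hypoxia response cores TACGTG and GACGTG. None of these motifs contains another.
Apela, chr8:65037337-65037586, minus strand: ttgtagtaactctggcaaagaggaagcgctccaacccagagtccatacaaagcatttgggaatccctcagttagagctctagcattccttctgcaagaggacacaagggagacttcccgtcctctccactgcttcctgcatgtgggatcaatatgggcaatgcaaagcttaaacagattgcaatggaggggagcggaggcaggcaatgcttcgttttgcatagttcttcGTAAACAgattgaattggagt
Apln, chrX:48034854-48035103, minus strand: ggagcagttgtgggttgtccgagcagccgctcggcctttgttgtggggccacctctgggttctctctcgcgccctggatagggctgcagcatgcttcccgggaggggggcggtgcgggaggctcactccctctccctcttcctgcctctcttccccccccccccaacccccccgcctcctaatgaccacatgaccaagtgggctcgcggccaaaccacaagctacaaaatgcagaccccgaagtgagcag
Ramp3, chr11:6658283-6658532, plus strand: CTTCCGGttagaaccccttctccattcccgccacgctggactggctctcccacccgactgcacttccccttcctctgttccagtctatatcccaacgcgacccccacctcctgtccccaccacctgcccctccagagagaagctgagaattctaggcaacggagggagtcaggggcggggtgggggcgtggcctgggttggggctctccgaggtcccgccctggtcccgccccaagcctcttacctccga
Tie1, chr4:118489850-118490099, minus strand: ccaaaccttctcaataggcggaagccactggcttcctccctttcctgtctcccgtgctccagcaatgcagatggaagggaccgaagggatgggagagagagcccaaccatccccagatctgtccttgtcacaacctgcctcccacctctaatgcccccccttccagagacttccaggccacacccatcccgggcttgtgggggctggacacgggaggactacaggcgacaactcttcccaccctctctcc
The promoter table held 27 of the 43 genes. The forkhead motif lay in 1 of the 27 genes, Apela, on the opposite strand 21 to 15 bases before the start, and in 3.54% of the 27025 genes with a promoter there. The ETS motif lay in 2 of the 27, Lyl1 and Ramp3, and in 7.83% of all. The core GACGTG lay in Clec14a and Vegfa and in 5.87% of all, and TACGTG in 0 of the 27 and in 3.12% of all. In Ramp3 the last 27 printed bases lie past the gene's start in a second RefSeq table of genes. These matches describe letters in a short window and do not show that a factor binds there, and their link to any change was not tested.

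Array medians were alike, from 8.25 to 8.32 in log2 intensity. The probe set of Foxa2 fell by 0.52 (SE 0.05, adjusted p = 0.0013, limma), and its 4 deleted uteri at 8.20 to 8.22 lay below every control, as their labels say. Where its probes lie relative to the deleted part of the gene was not known here. Changes below are Foxa2-deleted minus control on the log2 scale of the deposited intensities, where 1 unit is a doubling. Adjusted p are from limma over all genes with Benjamini-Hochberg adjustment, and a gene was called changed under 0.05. Intervals are limma's 95% intervals for 1 gene and are not adjusted for the number of genes. The deposited values came with no detection call, so no level could be set against background.

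About as many of the endothelial and angiogenic genes fell in Foxa2-deleted uteri as did not fall. Of the 42 genes measured, 22 fell, 2 rose and 18 did not pass. Among all genes tested 6.58% fell, 4.50% rose and 11.1% changed in either direction. The median change of the 42 genes was -0.32, beside 0.01 over all genes. In 24 of the 42 every deleted uterus lay below every control, and in 3 every deleted uterus lay above. Over all genes these shares were 11.6% and 9.55%, or 21.1% for either. With each array centred on its median, 19 members fell and 2 rose, while the calls over all genes went from 1311 lower and 898 higher to 982 lower and 1082 higher. The 2 that rose were Ramp3 and Angptl4. The number that fell was 9, 7, 8 and 5 without control replicates 1, 2, 3 and 4, and 11, 24, 18 and 21 without Foxa2-deleted replicates 1 to 4. In whole tissue, fewer endothelial cells, a smaller endothelial share of the RNA and less RNA per endothelial cell cannot be told apart.

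**Figure D1:**
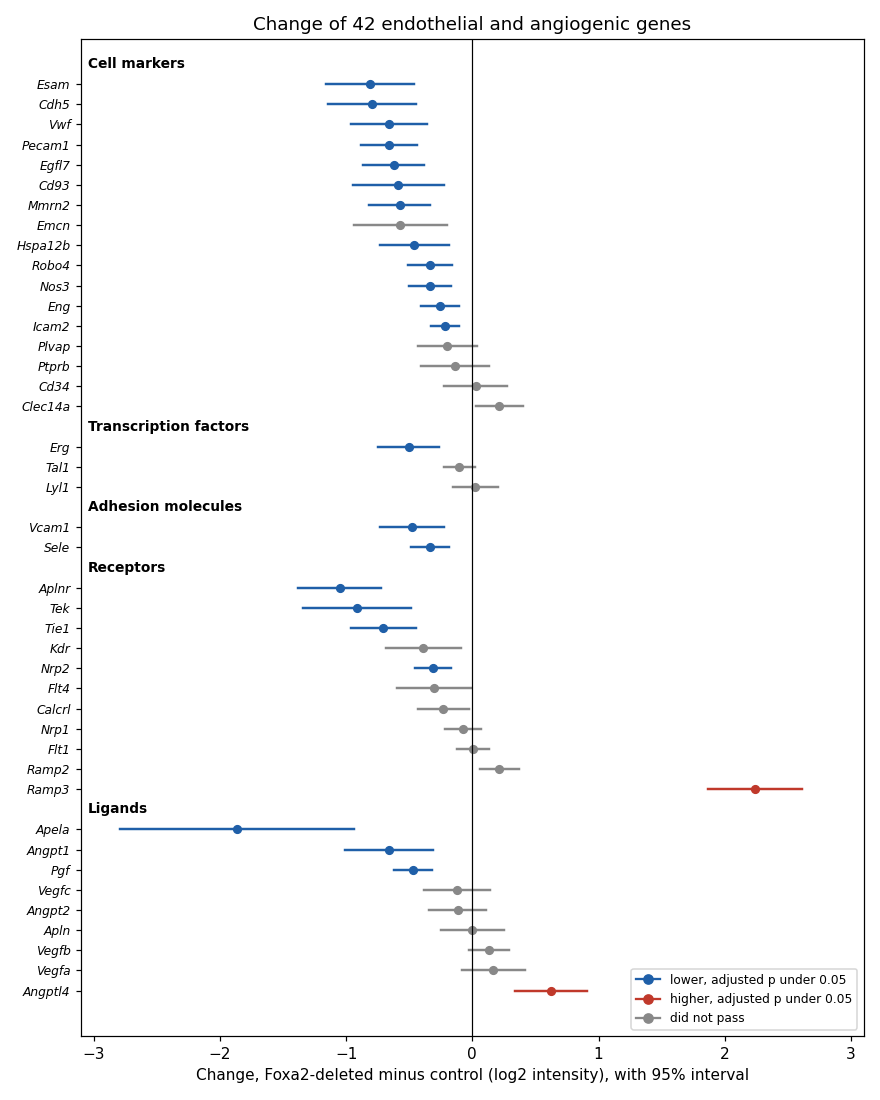
Change of the 42 genes between genotypes (x axis, Foxa2-deleted minus control, log2 intensity; points, fitted change; lines, 95% interval; 4 uteri per genotype), ordered within cell markers, transcription factors, adhesion molecules, receptors and ligands. Most cell markers lie left of 0, Ramp3 lies at 2.24 and Apela at -1.87.

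Junction, surface and matrix markers were 17 in number, of which 12 fell, 5 did not pass and none rose, and their median change was -0.46. The junction protein PECAM-1, encoded by Pecam1, read 10.81, 10.83, 10.86 and 10.91 in control replicates 1 to 4 and 10.22, 10.40, 9.89 and 10.26 in deleted replicates 1 to 4. The lowest control thus lay above the highest deleted uterus, and the change was -0.66 (SE 0.10, adjusted p = 0.0077). Cdh5 encodes VE-cadherin, the cadherin of endothelial junctions, and read 11.79, 11.79, 11.76 and 11.82 in controls and 10.77, 11.39, 10.62 and 11.21 in deleted uteri. The SD of Cdh5 was 0.02 in controls and 0.36 in deleted uteri (n = 4 each), and the groups did not overlap. The change was -0.79 (SE 0.15, adjusted p = 0.018).

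Esam, an adhesion protein of endothelial tight junctions, fell most among the markers, by 0.81 (SE 0.15, adjusted p = 0.017). It read 11.08, 11.02, 11.03 and 11.13 in controls and 10.07, 10.70, 9.88 and 10.36 in deleted uteri. Replicate 3 was the lowest deleted uterus and replicate 2 the highest, the order also seen in Pecam1, Cdh5 and Egfl7. Egfl7, a protein that endothelial cells secrete into their matrix, fell by 0.62 (SE 0.11, adjusted p = 0.012). Mmrn2, a matrix protein of vessels, and Cd93, its membrane partner, had changes of -0.58 (SE 0.11, adjusted p = 0.016) and -0.59 (SE 0.16, adjusted p = 0.047) and were both called lower. Cd93 stands 3 places from Foxa2 in the order of protein-coding genes on chromosome 2. Thbd, which encodes thrombomodulin and stands between them, was at -0.19 (SE 0.12, adjusted p = 0.302); it was named for its place after its value was seen.

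Von Willebrand factor, the clotting protein stored in endothelial granules and encoded by Vwf, fell by 0.66 (SE 0.13, adjusted p = 0.020). Its deleted uteri read 9.85, 9.49, 9.27 and 9.40, and replicate 1, not replicate 2, lay nearest the controls at 10.25, 9.95, 10.09 and 10.36. Smaller decreases were found for Hspa12b, an atypical HSP70 protein of endothelium (change -0.46, SE 0.12), the guidance receptor Robo4 (-0.34, SE 0.08) and the endothelial nitric oxide synthase Nos3 (-0.33, SE 0.07). Endoglin (Eng), a TGF-beta co-receptor, and the adhesion molecule Icam2 were lower by the least among the 12 that fell, with changes of -0.26 (SE 0.07) and -0.22 (SE 0.05). Adjusted p of these 5 genes ran from 0.026 to 0.045.

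Endomucin (Emcn), a mucin-like protein of capillaries and veins, missed the threshold at adjusted p = 0.055, with a change of -0.57 (SE 0.16). All its deleted uteri, at 10.62, 11.17, 10.34 and 11.01, lay below the controls at 11.35, 11.33, 11.28 and 11.46. Without Foxa2-deleted replicate 2 or replicate 4 Emcn passed, with adjusted p down to 0.015. Cd34, a sialomucin of endothelium that stromal fibroblasts also carry, was at 0.03 with an interval from -0.23 to 0.28. Its deleted uteri fell on both sides of the controls, at 12.79 and 12.77 in replicates 1 and 2 and 12.33 and 12.35 in replicates 3 and 4. The phosphatase Ptprb, which acts on TIE2, was at -0.14 (interval -0.41 to 0.14). Plvap, a protein of the diaphragms of leaky capillaries, was at -0.20 (interval -0.43 to 0.04), and the lectin-like protein Clec14a at 0.21 (interval 0.03 to 0.40, adjusted p = 0.113). Clec14a passed without Foxa2-deleted replicate 4, at adjusted p = 0.041.

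The calls of Pecam1 and Egfl7 held with any 1 array left out. Cdh5, Esam and Mmrn2 did not pass without control replicate 2, 3 or 4, where their highest adjusted p were 0.060, 0.057 and 0.052, nor Vwf without control replicate 1, 3 or 4 (highest 0.065). Nos3 lost its call without control replicate 1, 2 or 4 or deleted replicate 1 (up to 0.082), and Robo4 without control replicate 1, 3 or 4 or deleted replicate 1 or 3 (up to 0.090). Icam2 and Cd93 lost theirs without any control or deleted replicate 1 (up to 0.082 and 0.119), Cd93 also without deleted replicate 3, and Eng and Hspa12b without any array but Foxa2-deleted replicate 2 (up to 0.124 and 0.115). Between 2 and 13 of the 17 markers fell in these fits. Under repeated quantile normalisation and under cyclic loess 7 of the 17 fell, as Robo4, Icam2, Cd93, Eng and Hspa12b no longer passed.

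Among 3 transcription factors of endothelial and blood lineages, Erg fell and Tal1 and Lyl1 did not pass. Erg, an ETS factor that maintains endothelial identity, read 9.53, 9.44, 9.43 and 9.48 in controls and 8.81, 9.22, 8.72 and 9.11 in deleted uteri. The groups did not overlap, and the change was -0.51 (SE 0.11, adjusted p = 0.023), which did not pass without any 1 control or without deleted replicate 1 (highest adjusted p 0.071). Tal1 was at -0.10 (interval -0.23 to 0.02) and Lyl1 at 0.02 (interval -0.16 to 0.20). Both are known from blood cell precursors as well as from endothelium.

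Both measured adhesion molecules for white blood cells fell. Sele encodes E-selectin, which slows leukocytes on activated endothelium, and read 8.30, 8.26, 8.16 and 8.37 in controls and 7.86, 8.09, 7.92 and 7.89 in deleted uteri (change -0.33, SE 0.07, adjusted p = 0.020). Vcam1, which binds leukocyte integrins and is also made by uterine stroma, fell by 0.48 (SE 0.11, adjusted p = 0.032). Its lowest deleted uterus was replicate 4 at 8.57 and its lowest control replicate 3 at 9.06. Both calls were lost without control replicate 1, 2 or 4 or deleted replicate 1, with adjusted p up to 0.067 for Sele and 0.095 for Vcam1.

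**Figure D2:**
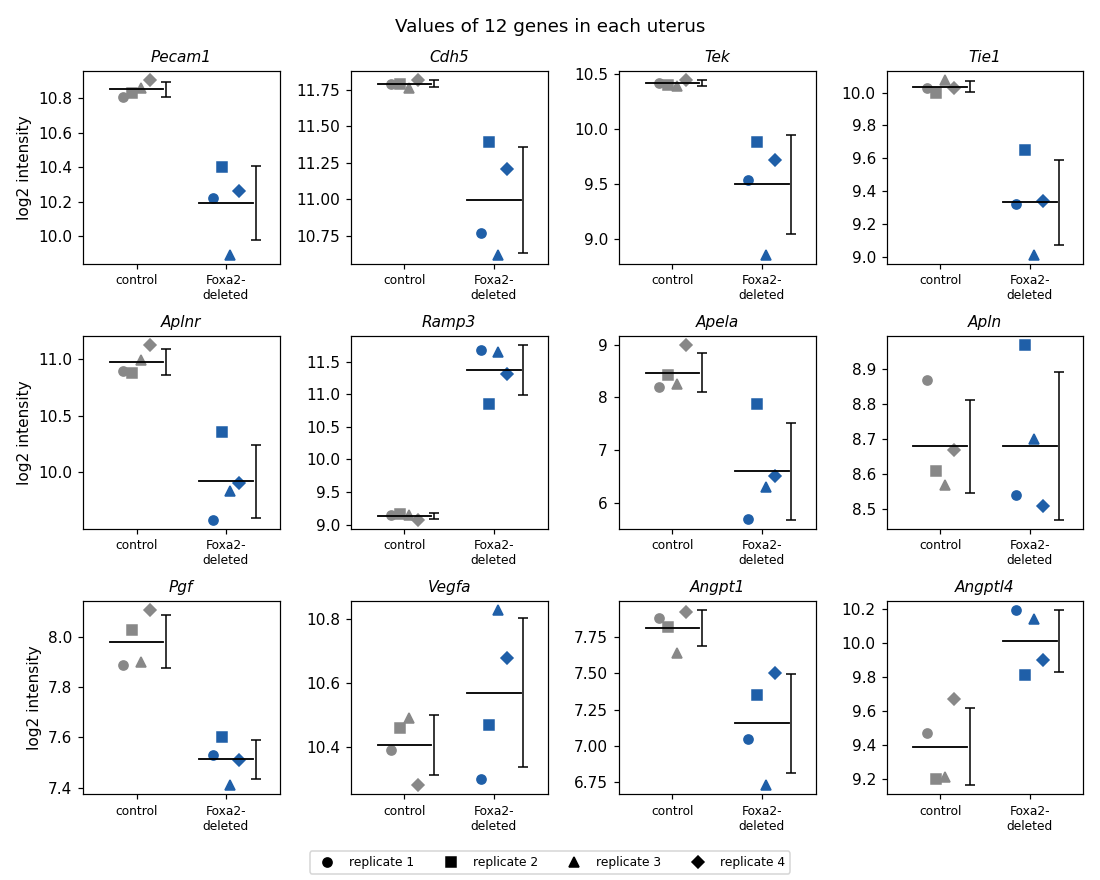
Log2 intensity (y axis, a separate range for each gene) of 12 members in 4 control and 4 Foxa2-deleted uteri; marker shapes give the replicate, horizontal lines the mean and bars the SD. Every deleted uterus lies apart from the controls for Pecam1, Cdh5, Tek, Tie1, Aplnr, Ramp3, Apela, Pgf, Angpt1 and Angptl4, and the groups overlap for Apln and Vegfa.

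Of 11 receptor genes, 4 fell, 1 rose and 6 did not pass, with a median change of -0.30, and 2 to 5 fell with 1 array left out. Both receptor kinases of the angiopoietin pathway fell. Tek read 10.42, 10.40, 10.39 and 10.45 in controls and 9.54, 9.88, 8.86 and 9.72 in deleted uteri. Deleted replicate 3 was lower than the others, and no deleted uterus reached the controls. The change of Tek was -0.92 (SE 0.19, adjusted p = 0.022), which did not pass when any 1 control was left out (highest adjusted p 0.069). Tie1 read 10.03 in control replicates 1 and 4, 10.08 in replicate 3 and slightly less than 10.03 in replicate 2. Its deleted uteri read 9.32, 9.65, 9.01 and 9.34, all below the controls. Tie1 fell by 0.70 (SE 0.11, adjusted p = 0.011), and its call held with any 1 array left out.

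None of the 3 VEGF receptor kinase genes passed. Kdr, which encodes VEGFR2, the main receptor of VEGF signalling in endothelium, read 10.25, 10.33, 10.26 and 10.42 in controls and 9.95, 10.27, 9.54 and 9.95 in deleted uteri. Deleted replicate 2 lay among the controls, and the change of -0.39 (interval -0.69 to -0.09) did not pass at adjusted p = 0.088. Without that replicate the change was -0.50 and passed at adjusted p = 0.019. Flt1, which encodes VEGFR1, a receptor that binds VEGFA and PlGF, was at 0.01 with an interval from -0.13 to 0.14. Flt4, the VEGFC receptor VEGFR3 of lymphatic and sprouting endothelium, was at -0.30 (interval -0.60 to -0.01, adjusted p = 0.149). Of the neuropilins, Nrp2 fell by 0.31 (SE 0.06, adjusted p = 0.022), from 9.96, 9.98, 10.05 and 10.03 in controls to 9.78, 9.65, 9.54 and 9.80. Nrp1 was at -0.07 (interval -0.22 to 0.07). Nrp2 did not pass when control replicate 2, 3 or 4 was left out (highest adjusted p 0.071).

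The apelin receptor gene Aplnr fell by more than any other receptor gene listed here. It read 10.90, 10.88, 10.99 and 11.13 in controls and 9.58, 10.36, 9.84 and 9.91 in deleted uteri. Here replicate 1 was the lowest deleted uterus. The change of -1.05 (SE 0.15, adjusted p = 0.0060) is 2.07-fold lower, and it passed with any 1 array left out, with adjusted p up to 0.027.

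Among the adrenomedullin receptor genes Ramp3 rose, and Ramp2 and Calcrl did not pass. Ramp3 read 9.15, 9.16, 9.15 and 9.07 in controls and 11.68, 10.85, 11.65 and 11.31 in deleted uteri. Controls were nearly equal, and the lowest deleted uterus, replicate 2, was far above them. Ramp3 rose by 2.24 (SE 0.16, adjusted p = 3.6e-04), or 4.72-fold, which was rank 35 among the increases of all 19938 genes, and it passed in each of the 17 alternative fits. Ramp2, the partner that gives the main adrenomedullin receptor of vessels, read 10.67, 10.52, 10.57 and 10.66 in controls and 10.95, 10.70, 10.89 and 10.73 in deleted uteri. No Ramp2 value overlapped between the groups, but its change of 0.21 (interval 0.06 to 0.37) did not pass at adjusted p = 0.077 (0.047 without deleted replicate 2). Calcrl, the receptor that both partners join, was at -0.23 (interval -0.43 to -0.03, adjusted p = 0.116), with deleted uteri at 10.92, 11.02, 10.60 and 11.01 and controls from 11.10 to 11.13. The adrenomedullin gene Adm rose by 0.51 (SE 0.13, adjusted p = 0.041), which did not pass without any 1 control or without deleted replicate 1 (highest adjusted p 0.114). Adm is in a list of other angiogenic factors and was named after its values were seen. Ramp3 is also made outside endothelium, and the cells that gave this signal were not measured.

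Among 9 ligand genes, 3 fell, 1 rose and 5 did not pass, with a median change of -0.12, and 1 to 3 fell with 1 array left out. All 3 that fell were among the dimmer 50% of genes. With those genes left out, 4 ligand genes remained, of which 0 fell and 1 rose, with a median change of 0.15. Apela read 8.19, 8.42, 8.25 and 9.0 in controls and 5.69, 7.87, 6.31 and 6.52 in deleted uteri. Deleted replicate 2 stayed close to the lowest control, while the other 3 lay well below. The change of -1.87 (SE 0.41, adjusted p = 0.026), or 3.65-fold lower, was rank 12 among the decreases of all genes. Apela did not pass without any 1 control or without deleted replicate 1 (highest adjusted p 0.080). Apln, the other ligand of the receptor, read 8.87, 8.61, 8.57 and 8.67 in controls and 8.54, 8.97, 8.70 and 8.51 in deleted uteri. Its group means were equal to 2 decimals, with an interval from -0.25 to 0.25.

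Angpt1, the ligand that activates TIE2, read 7.88, 7.82, 7.64 and 7.92 in controls and 7.05, 7.35, 6.73 and 7.50 in deleted uteri. Every deleted uterus was lower, and replicate 3 the lowest, as for Tek. Angpt1 fell by 0.66 (SE 0.15, adjusted p = 0.031), which did not pass without any 1 control or without deleted replicate 1 (highest adjusted p 0.094). Angpt2 was at -0.12 (interval -0.34 to 0.11), with deleted uteri at 8.06, 8.47, 8.19 and 8.07 around controls at 8.49, 8.29, 8.24 and 8.24. Angptl4, a secreted inhibitor of lipoprotein lipase that acts on vessels and is no ligand of TIE2, read 9.47, 9.20, 9.21 and 9.67 in controls and 10.19, 9.81, 10.14 and 9.90 in deleted uteri. It rose by 0.62 (SE 0.13, adjusted p = 0.020), which did not pass when control replicate 2 or 3 or deleted replicate 1 was left out (highest adjusted p 0.066).

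Of the VEGF family ligands, only Pgf passed. Pgf encodes placental growth factor, a ligand of FLT1, and read 7.89, 8.03, 7.90 and 8.11 in controls and 7.53, 7.60, 7.41 and 7.51 in deleted uteri. Spread was about as small in both groups (SD 0.11 and 0.08, n = 4 each), and the change of -0.47 (SE 0.07, adjusted p = 0.0060) passed with any 1 array left out. Vegfa, the main growth factor of vessels, was at 0.17 (interval -0.08 to 0.41), with deleted uteri at 10.30, 10.47, 10.83 and 10.68 and controls from 10.28 to 10.49. Vegfb was at 0.13 (interval -0.02 to 0.29), and Vegfc, the lymphatic growth factor, at -0.12 (interval -0.38 to 0.14). Vegfc read 7.49 in deleted replicate 3 and 7.94 to 8.06 in the other deleted uteri.

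Pairs within a family were compared in each uterus as the log2 value of one gene minus that of the other, with a two-sided exact permutation test of 4 against 4 uteri and Benjamini-Hochberg adjustment over the 6 pairs. The smallest p this design allows is 0.029, and no pair passed after adjustment. A pair could pass only if most of the 6 pairs reached that smallest p, so no conclusion is drawn from their not passing. Apln minus Apela read 0.68, 0.19, 0.32 and -0.33 in controls and 2.85, 1.10, 2.39 and 1.99 in deleted uteri, a difference of 1.87 with no overlap (exact p = 0.029, adjusted p = 0.086). Pgf minus Vegfa ranged from -2.59 to -2.17 in controls and from -3.42 to -2.77 in deleted uteri, a difference of -0.64 with no overlap (exact p = 0.029, adjusted p = 0.086). Angpt2 minus Angpt1 was 0.54 higher in deleted uteri and its groups overlapped (exact p = 0.086, adjusted p = 0.103). Flt1 minus Kdr and Tie1 minus Tek were 0.39 and 0.21 higher (exact p = 0.057 and adjusted p = 0.086 for both), and Nrp1 minus Nrp2 was 0.24 higher (exact p and adjusted p = 0.114). A difference of this kind tells of unequal change in the same arrays and not of which gene is more abundant.

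Animals with the deletion differed among themselves more than controls did. Over the 42 genes the median SD was 0.08 in controls and 0.22 in deleted uteri, and the deleted SD was the larger in 37 of them, beside 70.3% of all genes. Of the 22 genes that fell, Foxa2-deleted replicate 3 lay farthest from the control mean in 17 and replicate 2 nearest in 17. Replicate 1 was farthest in 4, among them Aplnr and Apela, and replicate 4 in 1, Vcam1. The mean of the 17 endothelial markers, relative to controls, was -0.41, -0.19, -0.63 and -0.41 in deleted replicates 1 to 4 and lay between -0.04 and 0.05 in controls.

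**Figure D3:**
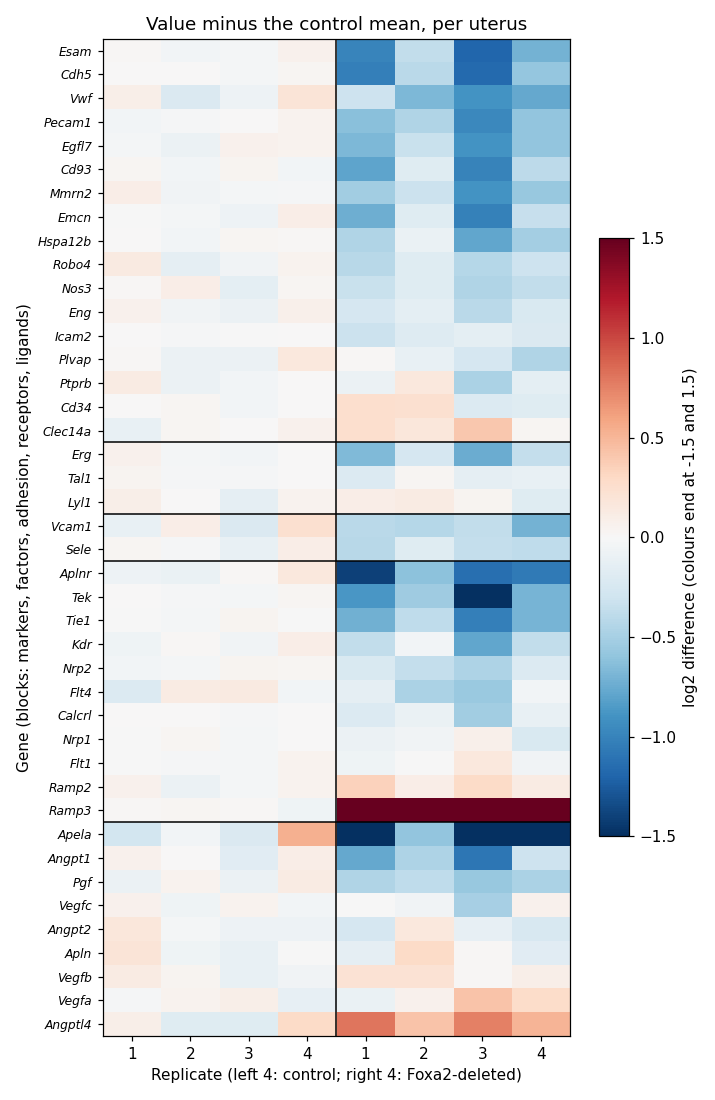
Each of the 42 genes (rows) in each uterus (columns), as log2 intensity minus the mean of the 4 controls; blue is lower and red higher. Blue rows fill most of the marker and receptor blocks on the Foxa2-deleted side, and in most genes that fell replicate 2 is the palest and replicate 3 the darkest.

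Other endothelial genes, from a list with no members in it, were counted next. Of 26 such genes 14 fell, 2 rose and 10 did not pass, with a median change of -0.40. Shank3, a scaffold protein best known from synapses, fell by 0.58 (SE 0.08, adjusted p = 0.0051). Rasip1, a regulator of RAS-like proteins needed for vessel lumens, fell by 0.79 (SE 0.11, adjusted p = 0.0069), and Tm4sf1, a tetraspanin-like surface protein, fell by 0.56 (SE 0.09, adjusted p = 0.011). The 2 that rose, named after their values were seen, were Sox7, a SOX factor of endothelium (0.69, SE 0.14), and Fabp4, a fatty acid binding protein that adipocytes also make (1.55, SE 0.42). Their adjusted p were 0.020 and 0.0496, and 0 of the 26 rose without control replicate 2, 3 or 4. The number that fell was 4 or 5 without any 1 control or Foxa2-deleted replicate 1, and 10 to 17 without replicate 2, 3 or 4.

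Genes of single vessel types were fewer. All 3 venous genes fell, namely the nuclear receptor Nr2f2 (-0.41, SE 0.10), the chemokine-binding protein Ackr1 (-0.59, SE 0.15) and the ephrin receptor Ephb4 (-0.23, SE 0.06). Their adjusted p ran from 0.034 to 0.048. Nr2f2 is also made by uterine stroma. Under each of the 3 other scalings 1 of the 3 venous genes fell, and 0 to 2 fell with 1 array left out. Of 10 arterial and Notch genes 3 fell and none rose, and the list median was -0.08. Those that fell were the receptor Notch1 (-0.35, SE 0.06), its ligand Jag2 (-0.41, SE 0.08) and Gja4, a connexin of arteries (-0.48, SE 0.12). The highest change of the list was 0.51, of Efnb2, which did not pass and was named after its value was seen. With each array centred on its median, and under cyclic loess, 1 of the 10 rose, and up to 1 rose with 1 array left out. Notch1 passed with any 1 array left out. Jag2 did not without control replicate 2, 3 or 4 or deleted replicate 1 (highest adjusted p 0.070), nor Gja4 without any 1 control or deleted replicate 1 or 4 (highest 0.113). Of 8 genes of sprouting tip cells none fell and 1 rose, Esm1 (0.36, SE 0.07, adjusted p = 0.023), which did not pass without control replicate 2, 3 or 4 (highest 0.071). Esm1 was dim, at 6.86 to 7.09 in controls and 7.19 to 7.50 in deleted uteri, and did not pass with the replicate number as a block. With the dimmest 25% of genes left out, Esm1 was not tested and 0 of the 7 remaining tip cell genes rose. Of 7 lymphatic genes measured 2 fell, Pdpn (-0.55, SE 0.10) and Prox1, the regulator of lymphatic identity (-0.38, SE 0.10), at adjusted p = 0.014 and adjusted p = 0.048. The list median was -0.37. Its highest change was 0.26, of Lyve1, which did not pass and was named after its value was seen. Without control replicate 2, 0 of the 7 fell and 1 rose. Among deleted uteri Pdpn was highest in replicate 3, at 10.23 against 9.77 to 9.95 in the others. Pdpn lost its call without control replicate 2 or 4 (up to 0.0501), and Prox1 without any array but Foxa2-deleted replicate 1 or 4 (up to 0.129).

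Further angiogenic factors and inhibitors moved in both directions, with 5 of 26 lower, 3 higher and a median of 0.02. Hgf, the hepatocyte growth factor, fell by 1.15 (SE 0.26), while Fgf2, a fibroblast growth factor that acts on endothelium, and the semaphorin Sema3a, a ligand of neuropilin 1, rose by 0.63 (SE 0.13) and 0.74 (SE 0.15). Adjusted p of the 3 genes ran from 0.020 to 0.030. None of them passed when control replicate 2, 3 or 4 was left out (highest adjusted p 0.084). Hgf and Sema3a also missed without control replicate 1, and Hgf without deleted replicate 1. The list of 17 hypoxia genes holds the regulators Hif1a, Epas1, Arnt and Vhl beside hypoxia-inducible genes. Of these 17 none fell and 2 rose, and the median was 0.35. They were Egln3, a prolyl hydroxylase that senses oxygen (2.59, SE 0.35, adjusted p = 0.0055), and Car9, a carbonic anhydrase (1.61, SE 0.33, adjusted p = 0.022). Car9 did not pass when any 1 control was left out (highest 0.069), and 1 to 6 of the 17 rose with 1 array left out. Vegfa and Angptl4, which are also known as hypoxia targets, are described above.

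Marker lists of other cells are given beside these results, and their part in the changes of the endothelial genes was not tested. Of 9 epithelial markers 5 rose and none fell (median 0.90), led by Krt19, a keratin (1.86, SE 0.22, adjusted p = 0.0034). The lowest change was -0.47, of Cldn3, which did not pass and was named after its value was seen. The mean of the 9 epithelial markers relative to controls was 0.73, 0.53, 1.49 and 0.84 in deleted replicates 1 to 4, against -0.11 to 0.11 in controls. The uterus with the largest epithelial mean, replicate 3, was also the one with the lowest endothelial mean. Of 10 NK and T cell markers 7 fell and none rose, among them the NK receptor Klrb1c (-1.17, SE 0.09, adjusted p = 3.8e-04). The T cell genes of this list, Cd3e, Cd3g and Cd8a, did not pass, and they were named after their values were seen. The NK and T cell median was -0.76, with deleted means from -0.92 to -0.52 and control means from -0.11 to 0.09. Of 10 pericyte markers 2 fell, Notch3 (-0.55, SE 0.10, adjusted p = 0.016) and Rgs5 (-0.82, SE 0.21, adjusted p = 0.041). Notch3 did not pass without control replicate 2 or 3 (highest 0.053), nor Rgs5 without any array but Foxa2-deleted replicate 2 (highest 0.106). The pericyte median was 0.01 (deleted means -0.21 to 0.02, controls -0.04 to 0.06). Of 9 smooth muscle markers 1 rose and none fell (median 0.23, deleted means -0.05 to 0.53, controls -0.05 to 0.11), and of 9 stromal fibroblast markers 0 passed (median -0.01, deleted means -0.30 to 0.01, controls -0.02 to 0.02). With 1 array left out up to 3 stromal markers fell, 3 to 7 epithelial markers rose and up to 1 epithelial marker fell.

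Blood cells were represented by few genes. Of 6 platelet genes measured 1 rose, the integrin subunit Itgb3, which endothelium and epithelium also make (0.71, SE 0.16, adjusted p = 0.026), and none fell. Of 3 red cell genes 0 passed, with Slc4a1, the anion exchanger of red cells, at 0.145 (SE 0.07, adjusted p = 0.185). Of 8 macrophage markers 1 rose, Cd163 (0.25, SE 0.07, adjusted p = 0.049), and of 7 mast cell markers 1 fell, Kit (-0.96, SE 0.20, adjusted p = 0.023). Itgb3 and Kit did not pass when any 1 control was left out (highest 0.080 and 0.075), nor Cd163 without any array but control replicate 1 (highest 0.132).

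**Figure D4:**
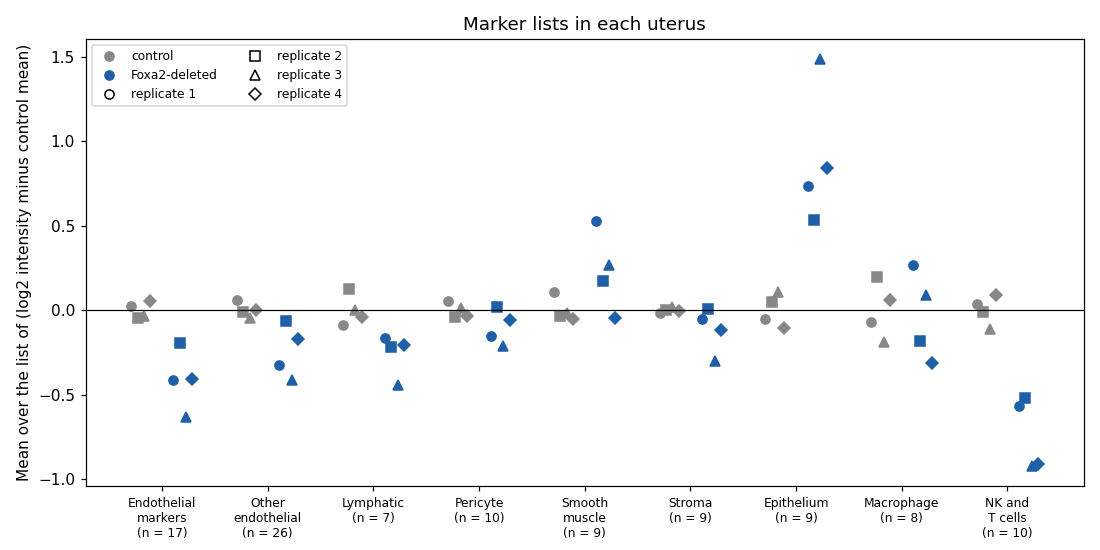
Mean over each marker list of log2 intensity minus the control mean (y axis) in each uterus, for 9 lists (x axis, with the number of genes measured); grey marks controls, blue Foxa2-deleted uteri, and shapes the replicate. Endothelial markers lie from -0.63 to -0.19 in deleted uteri and epithelial markers from 0.53 to 1.49, while stromal fibroblast markers lie between -0.30 and 0.01.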

How the data were processed

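The deposited values are log2 intensities with 2 decimals, which the authors made with RMA, per the submitters' processing notes, which also name limma. RMA removes background, brings the arrays to 1 distribution and combines the probes of a set. No source used here gives a version, build or annotation. Per the labels' protocols 150 ng of total RNA per uterus was labelled, and each uterus was its own array. Changes of dim genes can be understated on this scale. The number of arrays limits the precision.

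Symbols came from GEO's platform annotation. Of 35556 probe sets 21789 carried 1 symbol, 1621 several and 12146 none, and the last 2 kinds were left out. The probe set with the highest mean stood for each of 19938 genes, of which 19856 matched RefSeq's gene table. Groups and replicate numbers came from the titles. Genotypes were compared over all genes with lmFit and eBayes in limma 3.58.1 (R 4.3.3) without covariates, and pairs by exact permutation in scipy 1.17.1 over 70 arrangements. The fit was tested on simulated data that gave both genotypes the same spread for each gene. That test therefore does not cover the unequal spread of the genotypes seen here. Named were all members, Foxa2 and up to 3 genes per further list with the smallest adjusted p, or 1 with the smallest p where none passed. The 17 alternatives vary the block, the scaling, the filter on dim genes, the probe set per gene, the variance model and the arrays left out. Members and lists were chosen with earlier results of these data known.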

Additional observations from a re-analysis of the deposited data

Results flagged for a closer look

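In 5 of 162 groups of 4 uteri tested, 1 uterus lay far from the other 3 relative to the range of its group, a gap that chance gives in about 1 of 20 groups. Among the members this held for Ramp3, where control replicate 4 read 9.07 and the other controls 9.15 to 9.16. Among other genes, Ackr1 read 8.73 in Foxa2-deleted replicate 1 against 8.37 to 8.41 in the other deleted uteri, and Hoxa11 read 10.66 in control replicate 4 against 10.57 to 10.58. Foxa2-deleted replicate 3 stood above the other deleted uteri in both hypoxia-inducible genes named, Egln3 (11.68 against 9.88 to 10.12) and Car9 (10.12 against 8.44 to 8.65).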

How the results depend on the processing

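Among the 42 members, the number that fell was 14 with the replicate number as a block and ranged from 5 to 24 with 1 array left out; the number that rose ranged from 1 to 3 with 1 array left out. The count over all genes, 2209, was 1062 with the block and 556 to 3059 with 1 array left out. The labels do not say whether replicate numbers pair the animals. Deviations of same-numbered uteri correlated at 0.06, -0.05, -0.03 and -0.01 across genes for numbers 1 to 4. Over all combinations the highest correlation was 0.12, between control replicate 3 and Foxa2-deleted replicate 4. With so few uteri these values cannot decide whether animals were paired. Of 24 called members 6 kept their call in every alternative that tested them, and no called member changed sign. Pecam1, Egfl7, Tie1, Aplnr and Ramp3 were tested in all 17, and Pgf in all but the fit without the lower 50% of genes. Among members that did not pass, Cd34 ran from -0.052 to 0.102 and Lyl1 from -0.023 to 0.089 with 1 array left out, and so changed sign. Leaving out the lower 50% of genes removed 8 members, among them Apela, Angpt1 and Pgf; 18 members then fell and 2 rose. The cause of these shifts was not tested, other than that fewer arrays or genes entered.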
